A study of Mus musculus with 8 samples.

Results

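Ubiquitin-conjugating enzymes (E2 enzymes) were examined in P7 sciatic nerves of *Nae1* cKO and WT mice. The genes were taken by symbol, as every row whose name is Ube2 followed by a letter and any further letters or digits, leaving out *Ube2m* and *Ube2f*, which carry NEDD8, and names of pseudogene copies. This gave 38 of 53090 genes, of which 35 are annotated as protein coding and 31 had enough counts to be tested. *Ube2cbp* came in by its name only, since it encodes a protein that binds an E2 enzyme and acts as a ubiquitin ligase. *Ube2d4* and *Ube2nl* are annotated as processed pseudogenes and *Ube2uos* as an antisense RNA.

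The *Nae1* cKO group held nerves of 4 mice that carried Cre recombinase under a promoter that acts in Schwann cells, and 2 floxed *Nae1* alleles. The WT group held nerves of 4 littermates without Cre, which carried 1 or 2 floxed alleles of *Nae1*, so that floxed *Nae1* was present in both groups. Mice were 7 days old in both groups, and the nerves are named here by the letters and numbers of their labels (K2, L1, L5 and L8 for *Nae1* cKO, K1, L3, L4 and L9 for WT). Each was treated as a separate animal. Cre removes exon 4 of *Nae1*, which encodes a subunit of the E1 enzyme of NEDD8, in Schwann cells alone, so that fibroblasts, macrophages, endothelium and other cells of the nerve kept the gene.

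Ubiquitin is passed from an E1 enzyme to the active-site cysteine of an E2 enzyme, and from there, with the help of an E3 ligase, to a lysine of a substrate. The E2 enzyme often sets the kind of chain that is built. Cullin-RING ligases, the largest family of E3 ligases, become fully active when NEDD8 is joined to their cullin, which is the step that *Nae1* serves, and they then take ubiquitin from a small set of E2 enzymes. In peripheral nerves, Schwann cells leave the cell cycle and build myelin in the days after birth.

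Total RNA was sequenced after removal of ribosomal RNA, to a depth of 12962798 to 14766770 expected counts per nerve. Levels are given in CPM, the counts scaled to 1000000 per library after TMM normalization, and genes are compared with each other only in CPM per kb of effective transcript length. *Nae1* was at 57.1, 57.2, 48.9 and 43.8 CPM in *Nae1* cKO nerves, against 89.8, 81.3, 77.7 and 82.7 CPM in WT nerves. It fell by 0.68 on the log2 scale (SE 0.097, adjusted p = 2.8e-04), and the groups did not overlap. In deposited TPM it was 21.3 ± 5.74 in *Nae1* cKO nerves and 28.4 ± 1.20 in WT nerves (SD, n = 4 each), a difference that did not pass (p = 0.114 in an exact two-sided permutation test, where 0.0286 is the smallest value that can be reached). TPM differed in scale between libraries. The 38 genes summed to 375 TPM in K2 and 734 TPM in L1, where their summed CPM was 1393 and 1434. K2 also had the largest share of the noncoding 7SK RNA, at 4.70% of its counts. The part of library composition in the TPM results was not tested. The Schwann cell marker *Sox10* was present in all 8 libraries. Of 9 Schwann cell markers 6 were lower and 1 was higher in *Nae1* cKO nerves, and of 12 macrophage markers 9 were higher. Of 8 fibroblast markers 4 were higher, and of 7 endothelial markers 3 were lower. Of all tested genes 14.1% were higher and 12.3% lower. In RNA of whole nerve, fewer cells of a type and less RNA per cell cannot be told apart. The summed level of 12 skeletal muscle markers was 64.7 to 179 CPM in *Nae1* cKO nerves and 132 to 2139 CPM in WT nerves, highest in L4 and K1, and results are also given without these 2 nerves.

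The upstream sequences of 3 of the genes that were higher in *Nae1* cKO nerves are shown because *Ube2c* and *Ube2t* are known as genes of dividing cells and *Ube2a* had the largest change. Capitals mark matches, on either strand, to the CCAAT box (CCAAT), the cell cycle homology region (TTTGAA) and E2F-type sites (TTTCCCGC, TTTGGCGC, TTTCCCGG or GCGGGAA, the first of which contains the last on the other strand). Each sequence is the 250 bases before the RefSeq start on GRCm38.p6, 5′ to 3′ on the plus strand, which is the strand of all 3 genes. The RefSeq starts of *Ube2c* and *Ube2a* lie inside the GENCODE gene models given below, which begin farther upstream.
Ube2c, chr2:164769679-164769928: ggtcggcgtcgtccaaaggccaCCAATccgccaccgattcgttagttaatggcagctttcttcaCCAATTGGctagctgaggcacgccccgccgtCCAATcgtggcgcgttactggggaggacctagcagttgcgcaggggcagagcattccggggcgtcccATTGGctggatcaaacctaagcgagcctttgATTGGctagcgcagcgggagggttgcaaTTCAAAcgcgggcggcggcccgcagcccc
Ube2t, chr1:134962315-134962564: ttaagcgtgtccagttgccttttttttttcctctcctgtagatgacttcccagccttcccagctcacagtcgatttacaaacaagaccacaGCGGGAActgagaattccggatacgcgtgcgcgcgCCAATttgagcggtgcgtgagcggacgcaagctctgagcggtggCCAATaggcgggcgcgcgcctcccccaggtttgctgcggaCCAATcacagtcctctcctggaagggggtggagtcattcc
Ube2a, chrX:36874045-36874294: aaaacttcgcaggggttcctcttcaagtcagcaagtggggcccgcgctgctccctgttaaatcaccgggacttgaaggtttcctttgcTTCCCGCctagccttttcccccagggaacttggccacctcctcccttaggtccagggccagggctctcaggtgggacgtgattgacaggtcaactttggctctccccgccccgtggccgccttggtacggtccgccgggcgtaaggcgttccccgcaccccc

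The *Ube2c* window holds 6 CCAAT matches, 2 of which overlap, and a match to the cell cycle homology region that begins 29 bases before the start. At least 3 CCAAT matches together with such a region occur in 0.381% of the 32851 promoters in the RefSeq table. *Ube2t* has 3 CCAAT matches and 1 E2F-type match, and *Ube2a* has 1 E2F-type match and no CCAAT match. At least 3 CCAAT matches occur in 2.79% of all promoters, an E2F-type match in 5.11%, a CCAAT match in 33.8% and the cell cycle homology region in 16.0%. RefSeq promoters were found for 29 of the 38 genes (37 promoters), of which 9 hold a CCAAT match and 7 an E2F-type match (*Ube2a*, *Ube2e2*, *Ube2h*, *Ube2j1*, *Ube2q1*, *Ube2t* and *Ube2v1*). The antioxidant response element (TGACNNNGC) was in 4 of the 37 (10.8%), against 10.2% of all promoters. The interferon-stimulated response element was in 1 of the 37, that of *Ube2dnl1*, and in 2.98% of all promoters. None of the 5 motifs was found for *Ube2l6*, and *Ube2e1* has 1 CCAAT match. A match is a run of letters and not a measured binding site.

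Per transcript length, the E2 genes covered a wide range in these nerves. *Ube2d3* and *Ube2s* were among the most abundant. *Ube2d3*, an E2 enzyme that works with very many RING ligases, was at 95.3 ± 2.66 CPM per kb in *Nae1* cKO nerves and 95.8 ± 7.68 in WT nerves (SD, n = 4 each, as below). *Ube2s* was at 76.6 ± 10.2 CPM per kb in *Nae1* cKO nerves and 60.7 ± 5.25 in WT nerves, and *Ube2n* at 41.3 ± 3.16 in *Nae1* cKO nerves and 42.6 ± 5.94 in WT nerves. The median tested gene was at 19.7 CPM per kb over all nerves. The lowest of the tested E2 enzymes was *Ube2t*, at 4.19 ± 0.995 CPM per kb in *Nae1* cKO nerves and 2.34 ± 0.431 in WT nerves.

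**Figure D1:**
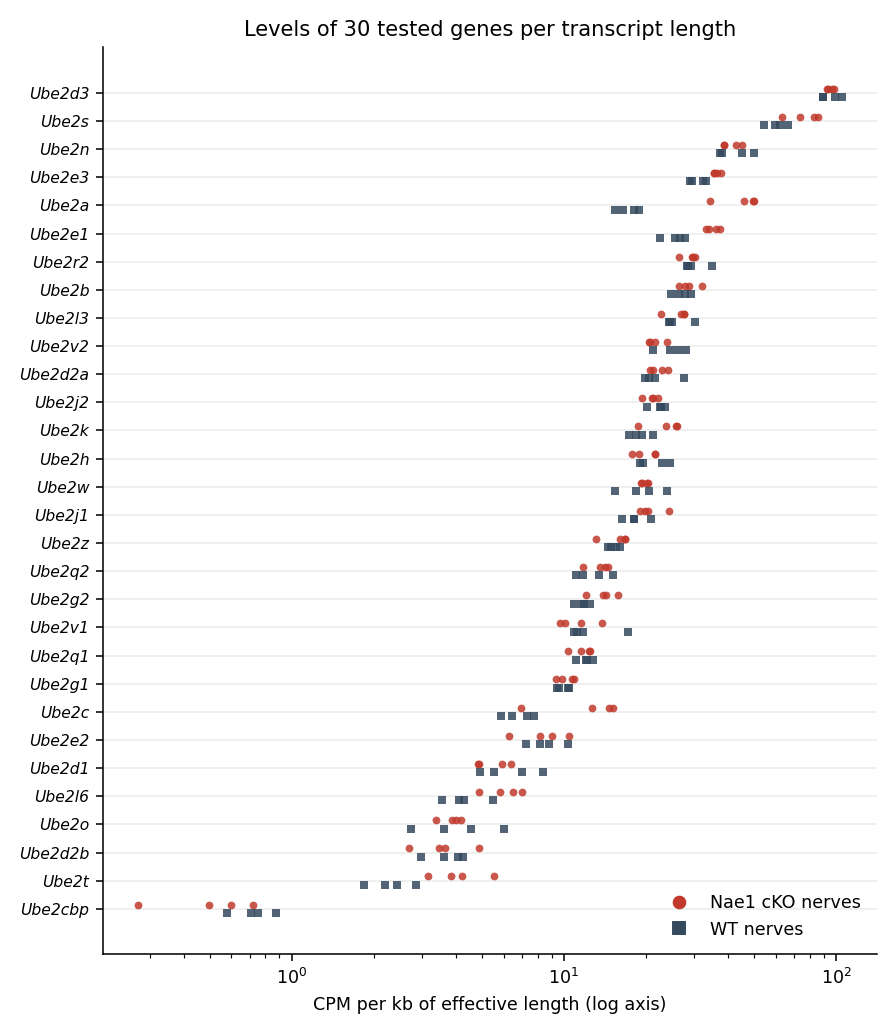
Level of 30 tested genes in every nerve, in CPM per kb of effective transcript length on a log axis, with *Nae1* cKO nerves as circles and WT nerves as squares. *Ube2d3* and *Ube2s* lie at the top, and *Ube2a* is the gene whose groups stand farthest apart.

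Between the genotypes, 5 of the 31 tested genes were higher in *Nae1* cKO nerves by edgeR's quasi-likelihood test, with the adjusted p over 17090 genes below 0.05. They were *Ube2a*, *Ube2t*, *Ube2c*, *Ube2l6* and *Ube2e1*, and they make up 16.1% of the tested E2 genes, a share near the 14.1% of all tested genes that were higher. None was lower, while 12.3% of all tested genes were. At an unadjusted p under 0.05, 11 of the 31 were higher, against 19.4% of all tested genes, and 1, *Ube2v2*, was lower, against 17.9%. DESeq2 and limma-voom also gave 5 higher and 0 lower at the adjusted threshold. Only *Ube2a* was called with a rise of more than 2-fold, as were 4.25% of all tested genes, and 3 E2 genes were so called when K2 was left out. Without WT nerves K1 and L4, 1 gene was higher (*Ube2a*) and 1 lower (*Ube2v2*), and without L1 and L9, the nerves that held *Xist* RNA, 2 were higher (*Ube2a* and *Ube2e1*). In deposited TPM 1 gene passed (*Ube2a*), and with libraries scaled by their totals 12 did. In 8 of the 31 (25.8%) every *Nae1* cKO nerve lay above every WT nerve, against 14.9% of all tested genes, and in 1, *Ube2v2*, every *Nae1* cKO nerve lay below, against 13.7%. The median log2 fold change of the 31 genes was 0.04 and that of all tested genes 0.01. The 26 genes that did not pass the test had log2 fold changes of −0.34 to 0.29.

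**Figure D2:**
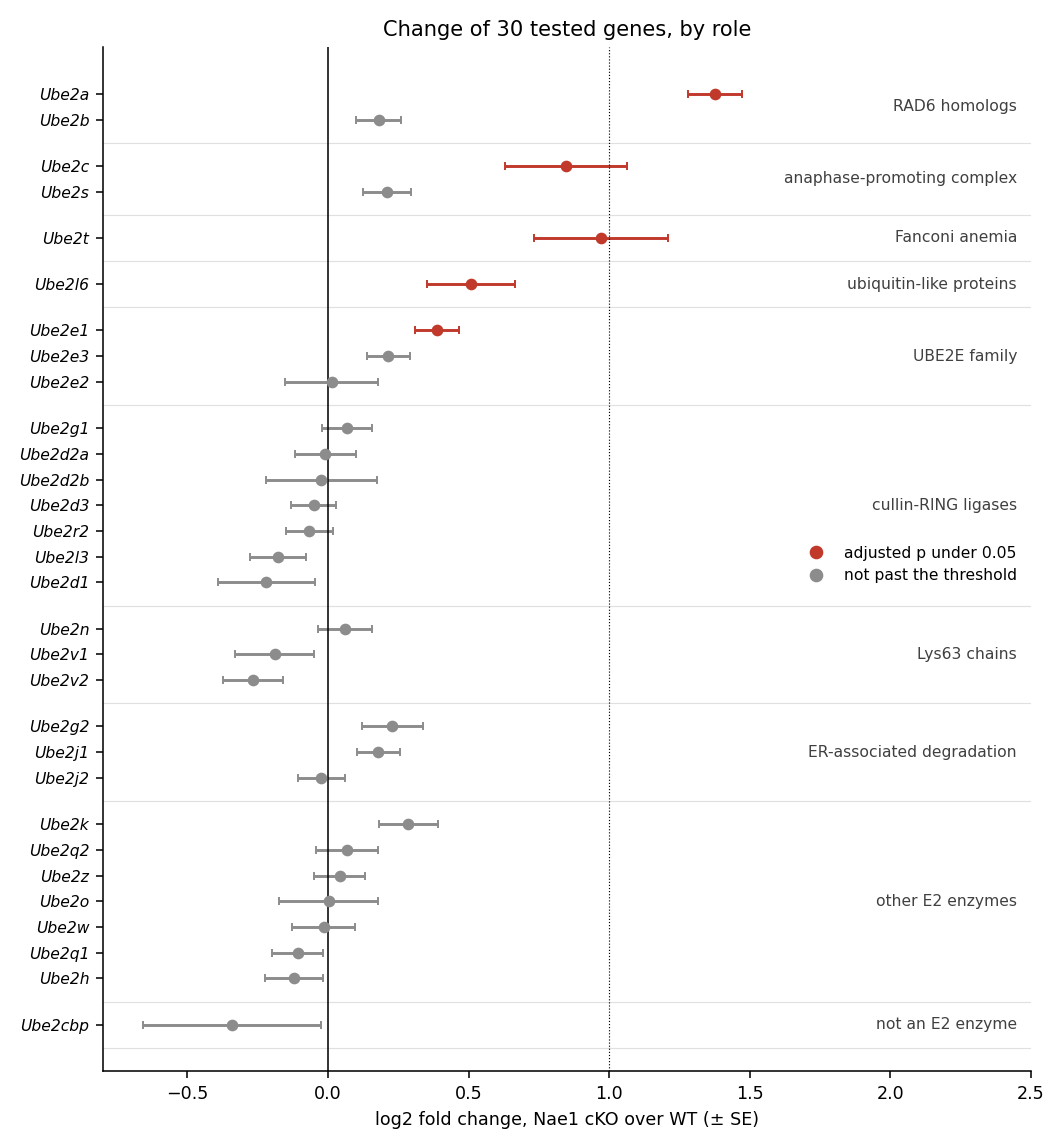
Log2 fold change of 30 tested genes, *Nae1* cKO over WT, with its standard error, ordered by role. The 5 genes past an adjusted p of 0.05 are in red, the dotted line marks a 2-fold rise, and *Ube2a* alone lies beyond it.

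The RAD6 homologs *Ube2a* and *Ube2b* work with the ligase RAD18 to ubiquitinate the replication clamp PCNA at damaged DNA, and with RNF20 and RNF40 to ubiquitinate histone H2B. *Ube2a* (ENSMUSG00000016308.12, X chromosome, 36873900 to 36884222, plus strand, GRCm38) was at 50.4, 40.1, 49.9 and 48.4 CPM in *Nae1* cKO nerves, against 18.2, 18.5, 17.4 and 18.5 CPM in WT nerves. The lowest *Nae1* cKO nerve was thus more than double the highest WT nerve, on 575 to 734 counts per *Nae1* cKO library and 233 to 256 per WT library. This was a 2.60-fold rise, with a log2 fold change of 1.38 (SE 0.096) and an adjusted p of 1.2e-06. It lay between 1.34 and 1.53 under all alternative settings and kept its call in each.

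*Ube2b*, the autosomal partner of *Ube2a*, was at 34.9, 32.5, 33.7 and 34.6 CPM in *Nae1* cKO nerves, against 28.1, 29.4, 30.9 and 31.3 CPM in WT nerves. The groups did not overlap, but the log2 fold change of 0.18 (SE 0.080, 95% interval 0.02 to 0.34) did not pass the test (adjusted p = 0.123). Per transcript length, *Ube2a* was at 1.74, 1.29, 1.78 and 1.42 times the level of *Ube2b* in the *Nae1* cKO nerves K2, L1, L5 and L8, against 0.620, 0.765, 0.529 and 0.650 times in the WT nerves K1, L3, L4 and L9. *Ube2a* was therefore the more abundant of the pair in every *Nae1* cKO nerve and the less abundant in every WT nerve. Its share of the summed CPM per kb of the 31 genes was 5.67% in *Nae1* cKO nerves and 2.41% in WT nerves.

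Of 9 genes of PCNA and Lys63 ubiquitination, 3 were higher in *Nae1* cKO nerves and none was lower. *Rad18*, the ligase that works with both RAD6 homologs, was at 29.4 ± 1.93 CPM in *Nae1* cKO nerves and 14.8 ± 1.35 CPM in WT nerves (log2 fold change 0.99, SE 0.10, adjusted p = 2.2e-05). *Trim25* rose by a log2 fold change of 0.77 (adjusted p = 3.4e-04) and *Pcna* itself by 0.65 (adjusted p = 0.0041). The median of the list was 0.15, beside 0.01 over all genes. Of all tested genes 14.1% were higher. Without K1 and L4, 2 of the 9 genes were higher. *Pcna* is counted again among the 14 replication markers below, and *Trim25* in the ISG15 pathway, so these lists are not separate sets of genes.

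**Figure D3:**
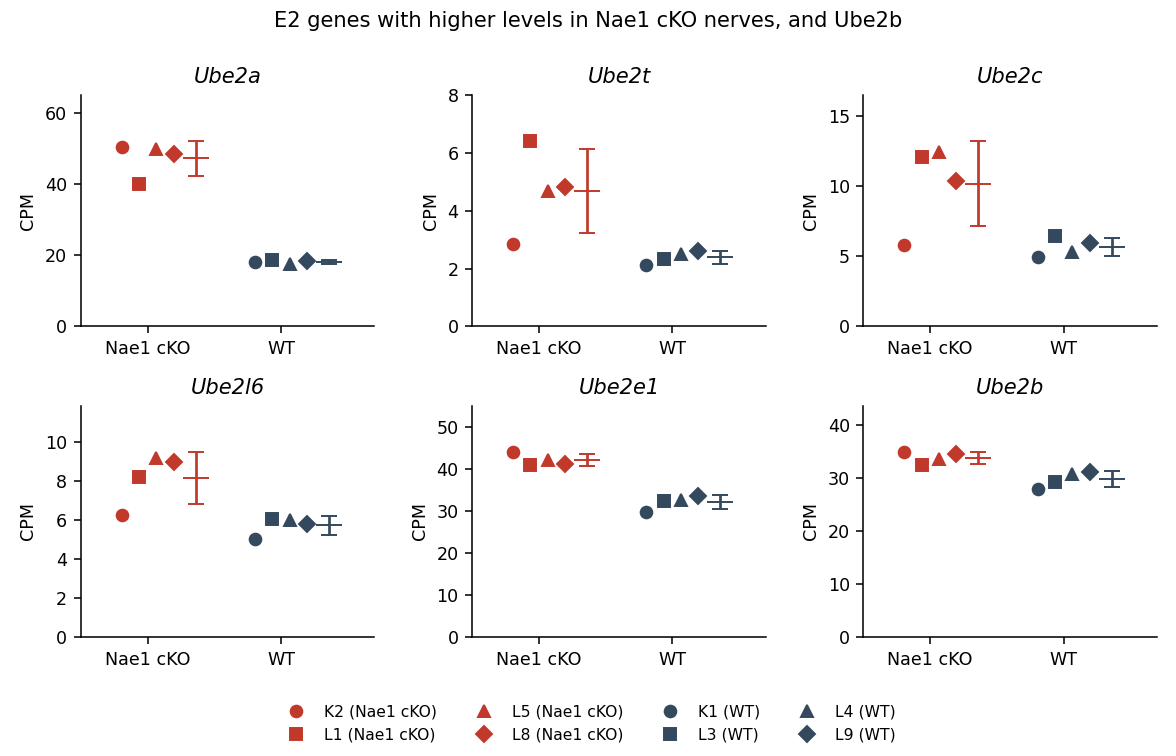
CPM of the 5 E2 genes that were higher in *Nae1* cKO nerves, and of *Ube2b*, in each nerve, with the mean and SD of each group beside the points. *Ube2a* at 40.1 to 50.4 CPM in *Nae1* cKO nerves stands clear of 17.4 to 18.5 CPM in WT nerves. For *Ube2t*, *Ube2c* and *Ube2l6*, K2 is the lowest *Nae1* cKO nerve and K1 the lowest WT nerve.

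Genes beside *Ube2a* on the X chromosome were also higher, and they were examined after their values were seen. Of 13 tested genes within 500 kb of *Ube2a*, 8 were higher in *Nae1* cKO nerves and none was lower, with a median log2 fold change of 0.77, where 14.1% of all tested genes were higher. *Nkrf*, which encodes a repressor of NF-kB target genes, runs towards *Ube2a* from the other strand and ends 3.32 kb from it. It was at 24.6, 23.3, 26.6 and 31.2 CPM in *Nae1* cKO nerves, against 5.70, 5.43, 6.81 and 6.12 CPM in WT nerves, a log2 fold change of 2.13 (SE 0.13, adjusted p = 4.5e-07). On the other side, *C330007P06Rik* lies on the minus strand and overlaps the first 212 bases of *Ube2a*, and its log2 fold change was 0.57 (SE 0.095, adjusted p = 8.2e-04). Whether the counting used strand is not given in the sources used here, so reads in this overlap may belong to either gene.

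Farther out, *Slc25a5*, a carrier of ADP and ATP in the inner mitochondrial membrane, nearly doubled, at 254 ± 20.3 CPM in *Nae1* cKO nerves and 127 ± 11.9 CPM in WT nerves, and *Gm14549* rose by a log2 fold change of 1.23, a call that was lost without L4 (adjusted p = 0.0539). *Akap17b*, *Pgrmc1*, *Rpl39* and *Sept6* rose by 0.86, 0.82, 0.77 and 0.67. *Slc25a43* had a log2 fold change of 0.80 with a wide error (SE 0.47, adjusted p = 0.245), and 1.41 without L3 (adjusted p = 0.0485). Beyond *Rpl39*, the remaining 4 tested genes had log2 fold changes of −0.24 to 0.0024 and did not pass. Of all 525 tested genes on the X chromosome 20.8% were higher, with a median log2 fold change of 0.09. Near the other called E2 genes, 2 of 22 tested genes within the same distance were higher for *Ube2c*, 2 of 21 for *Ube2t*, 6 of 19 for *Ube2l6* and 2 of 6 for *Ube2e1*.

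Since *Ube2a* is X-linked, the libraries were read for sex. *Xist*, the RNA of the inactive X chromosome, was at 1725 CPM in *Nae1* cKO nerve L1 and 2043 CPM in WT nerve L9, and at most 1.30 CPM in the other 6 nerves, in which the Y-linked *Ddx3y* was at 89.9 to 138 CPM. Each genotype therefore held 1 nerve with *Xist* and 3 with Y-linked RNA. L1 had the lowest *Ube2a* of the *Nae1* cKO nerves, and L9 lay among the other WT nerves. Without L1 and L9 the log2 fold change of *Ube2a* was 1.46 (adjusted p = 3.0e-05) and that of *Nkrf* 2.20 (adjusted p = 4.4e-05).

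**Figure D4:**
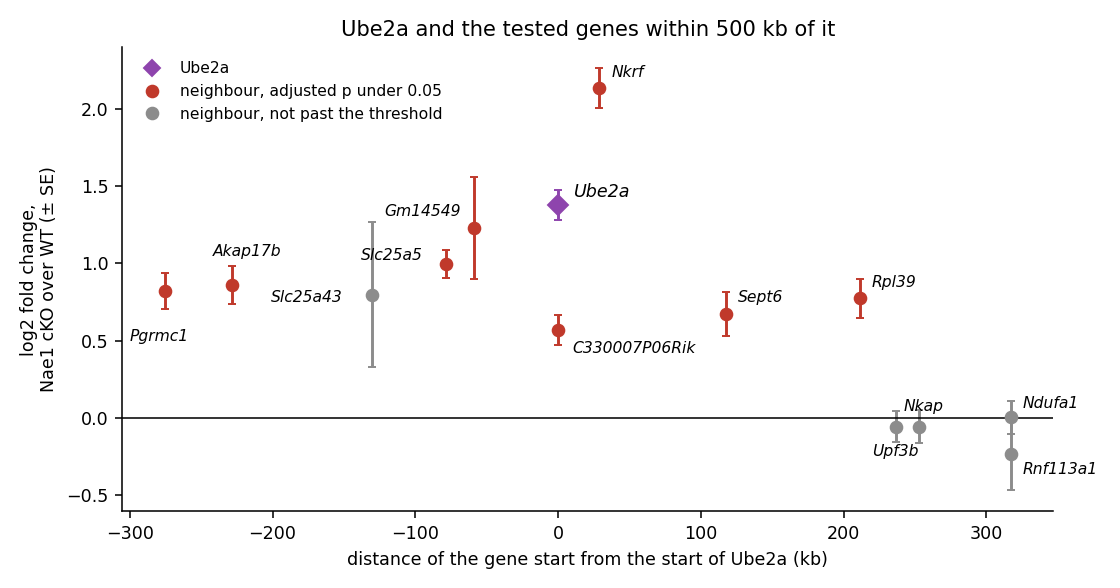
Log2 fold change (*Nae1* cKO over WT, with its standard error) of *Ube2a* and of the 13 tested genes within 500 kb, against the distance of each gene's start from that of *Ube2a* in kb. The 8 genes past an adjusted p of 0.05 lie between *Pgrmc1* and *Rpl39*, and the 4 genes beyond *Rpl39* lie near or below 0.

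UBE2C and UBE2S are the E2 enzymes of the anaphase-promoting complex, the ligase that ends mitosis. UBE2C starts ubiquitin chains on its substrates and UBE2S extends them. *Ube2c* (ENSMUSG00000001403.13, chromosome 2, 164769898 to 164778822, plus strand) was at 5.82, 12.1, 12.4 and 10.4 CPM in *Nae1* cKO nerves, against 4.97, 6.44, 5.31 and 5.96 CPM in WT nerves. L1, L5 and L8 lay well above all WT nerves, and K2 lay among them. The gene rose by a log2 fold change of 0.85 (SE 0.22, adjusted p = 0.0125). Without WT nerves K1 and L4 it was 0.71 and did not pass (adjusted p = 0.152), nor did it without L1 and L9 (0.78, adjusted p = 0.076). *Ube2s* was at 54.5, 58.7, 62.5 and 63.4 CPM in *Nae1* cKO nerves, against 56.3, 53.3, 46.3 and 50.9 CPM in WT nerves, with K2 again inside the range of the WT nerves. Its log2 fold change of 0.21 (SE 0.086, 95% interval 0.04 to 0.38) did not pass the test (adjusted p = 0.0952), and passed without K2 (0.24, adjusted p = 0.0426).

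Of 17 genes of the anaphase-promoting complex and its regulators, 2 were higher and none was lower. They were *Fbxo5*, which encodes the inhibitor EMI1 (log2 fold change 1.20, SE 0.16, adjusted p = 1.8e-04), and *Cdc20*, the coactivator of early mitosis (0.88, SE 0.14, adjusted p = 6.0e-04). The median of these 17 genes was 0.00. The 2 higher genes of 17 are a share no larger than the 14.1% of all tested genes that were higher.

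UBE2T carries ubiquitin to FANCD2 and FANCI in the Fanconi anemia pathway, which repairs DNA crosslinks in S phase. *Ube2t* (ENSMUSG00000026429.9, chromosome 1, 134962565 to 134974162, plus strand) was at 2.84, 6.41, 4.69 and 4.81 CPM in *Nae1* cKO nerves, against 2.12, 2.32, 2.51 and 2.62 CPM in WT nerves. All *Nae1* cKO nerves lay above all WT nerves, K2 only just. The gene rose by a log2 fold change of 0.97 (SE 0.24, adjusted p = 0.0096), on 29 to 92 counts per library. The call was lost without K1 and L4 (0.92, adjusted p = 0.0949) and without L1 and L9 (0.83, adjusted p = 0.0514). Its substrates *Fancd2* and *Fanci* rose by log2 fold changes of 1.18 (adjusted p = 2.3e-04) and 1.13 (adjusted p = 0.0031). In all, 5 of 10 genes of the pathway were higher and none was lower, where 14.1% of all tested genes were higher. Without K1 and L4, 2 of the 10 were higher.

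Markers of dividing cells moved with both genes. Of 18 mitosis markers 17 were higher in *Nae1* cKO nerves, among them *Aurkb* (log2 fold change 1.11, adjusted p = 3.9e-04) and *Mki67* (0.95, adjusted p = 0.0057), and of 14 replication markers 11 were higher. None of either list was lower, where 14.1% of all tested genes were higher and 12.3% lower. The median log2 fold changes were 1.02 and 0.84. Without K1 and L4, 8 of the 18 mitosis markers and 4 of the 14 replication markers were higher, with medians of 0.80 and 0.76. The summed level of the mitosis markers was 1020, 1902, 1708 and 1555 CPM in *Nae1* cKO nerves K2, L1, L5 and L8, against 648, 909, 672 and 812 CPM in WT nerves K1, L3, L4 and L9. K2 was thus the lowest *Nae1* cKO nerve for *Ube2c*, *Ube2t* and these markers alike. K1, the WT nerve with the same letter, was likewise the lowest WT nerve for all of them, and K2 lay above K1 in each. Per 1000 CPM of mitosis markers, *Ube2c* was at 5.71 to 7.29 CPM in *Nae1* cKO nerves and 7.09 to 7.90 CPM in WT nerves, and *Ube2t* at 2.75 to 3.37 CPM in *Nae1* cKO nerves and 2.55 to 3.74 CPM in WT nerves. *Ube2s* was at 30.9 to 53.4 CPM in *Nae1* cKO nerves and 58.6 to 86.9 CPM in WT nerves on the same scale. The part of dividing cells in the changes of *Ube2c* and *Ube2t* was not tested.

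**Figure D5:**
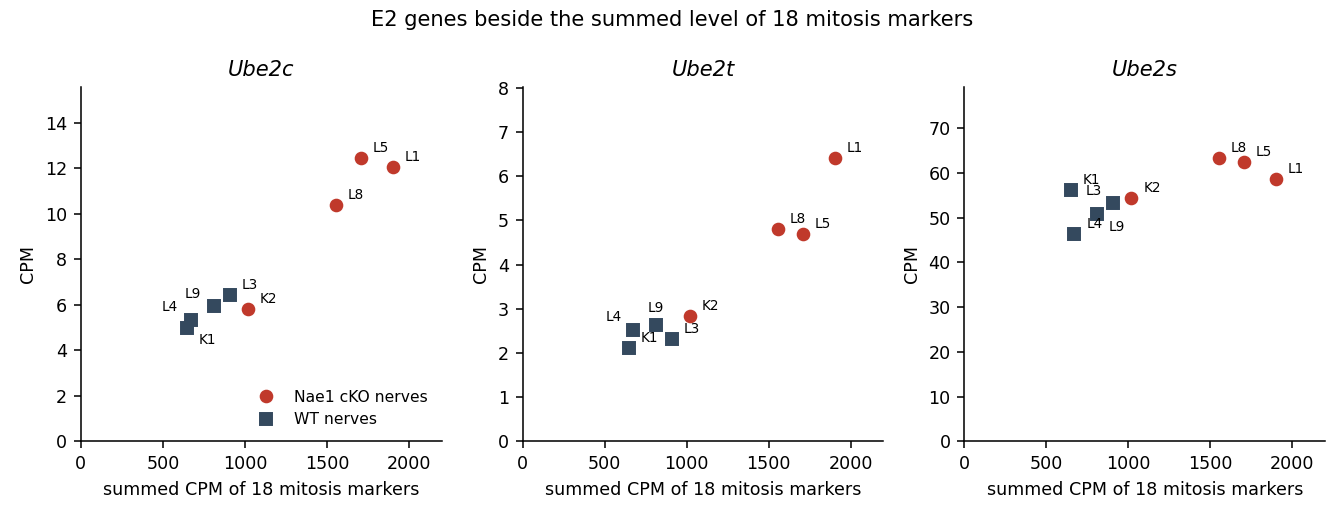
CPM of *Ube2c*, *Ube2t* and *Ube2s* in each nerve against the summed CPM of 18 mitosis markers, with *Nae1* cKO nerves as circles and WT nerves as squares. For *Ube2c* and *Ube2t* the nerves L1, L5 and L8 lie apart at the upper right and K2 lies beside the WT nerves, while *Ube2s* spans 46.3 to 63.4 CPM over all nerves.

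UBE2L6 carries ISG15, an interferon-induced modifier that is related to ubiquitin. *Ube2l6* (ENSMUSG00000027078.14, chromosome 2, 84798828 to 84810335, plus strand) was at 6.27, 8.22, 9.18 and 8.99 CPM in *Nae1* cKO nerves, against 5.04, 6.08, 6.03 and 5.80 CPM in WT nerves. The groups did not overlap, although K2 lay close to the WT nerves. The rise was 0.51 on the log2 scale (SE 0.16, adjusted p = 0.0303). The call held without K2 or without L3, but when K1, L4 or L9 of the WT nerves or L1, L5 or L8 of the *Nae1* cKO nerves was left out, the adjusted p was 0.0567 to 0.0967, with log2 fold changes of 0.45 to 0.53. It was 0.191 without both K1 and L4 and 0.103 without both L1 and L9.

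Of 10 tested genes of the ISG15 pathway 2 were higher without K1 and L4. With all nerves, 5 of the 10 were higher and none was lower, with a median log2 fold change of 0.49. Of all tested genes 14.1% were higher. The higher genes of the pathway included *Trim25* (named above), *Herc6*, an ISG15 ligase of the mouse (0.63, adjusted p = 0.0038), and *Ifit3* (0.80, adjusted p = 0.0082). The summed level of this list was 110, 142, 169 and 164 CPM in *Nae1* cKO nerves K2, L1, L5 and L8, against 117 to 141 CPM in WT nerves, so that K2 was below all WT nerves. The 12 macrophage markers summed to 437 to 555 CPM in *Nae1* cKO nerves, highest in K2, and to 251 to 282 CPM in WT nerves, and no marker was at 0. The part of macrophages in the change of *Ube2l6* was not tested.

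Of 16 tested genes of the SUMO pathway only 1 was higher and none was lower, where 14.1% of all tested genes were higher and 12.3% lower. It was *Ranbp2*, a SUMO ligase of the nuclear pore (log2 fold change 0.30, SE 0.076, adjusted p = 0.0117). Its call was lost in TPM and without K1 and L4 (0.24, adjusted p = 0.16).

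The UBE2E family is close to the UBE2D family and has a longer amino-terminal part. *Ube2e1* (ENSMUSG00000021774.13, chromosome 14, 18282722 to 18331859, minus strand) was at 44.1, 41.0, 42.3 and 41.1 CPM in *Nae1* cKO nerves, against 29.8, 32.4, 32.7 and 33.7 CPM in WT nerves. Each group was tight and they did not overlap. Its counts were fractional in all nerves, so that some of its reads are shared with other rows of the table. The rise was 1.31-fold (0.39 on the log2 scale, SE 0.079, adjusted p = 0.0030). Without K1 and L4 it was 0.34, with an adjusted p of 0.0534. *Ube2e3* was at 60.5 ± 3.86 CPM in *Nae1* cKO nerves and 52.1 ± 2.11 CPM in WT nerves, again without overlap, and its log2 fold change of 0.21 (SE 0.076) had an adjusted p of 0.0571, which was 0.0467 with the letter of the sample name as a term. *Ube2e2* was the rarest of the family, at 7.44 ± 1.28 CPM in *Nae1* cKO nerves and 7.36 ± 1.07 CPM in WT nerves (log2 fold change 0.01, SE 0.17).

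None of the 7 E2 genes that serve cullin-RING ligases, in which NEDD8 acts, passed the test in either direction. Of all tested genes 14.1% were higher and 12.3% lower, so that few of 7 genes would pass at these shares. *Ube2d3* was at 270, 299, 273 and 255 CPM in *Nae1* cKO nerves, against 271, 291, 262 and 311 CPM in WT nerves, and the ranges overlapped. Its log2 fold change was −0.05, with a 95% interval of −0.21 to 0.11. For *Ube2d2a*, its close relative, it was −0.01 (−0.22 to 0.20), for *Ube2d1* −0.22 (−0.56 to 0.12) and for the low *Ube2d2b* −0.02 (−0.41 to 0.36). On the same scale, *Ube2r2* and *Ube2g1*, which extend chains on cullin-bound substrates, were at −0.07 (−0.23 to 0.10) and 0.07 (−0.11 to 0.24). *Ube2l3*, which serves the ARIH1 ligase that joins neddylated cullins, was at −0.18 (−0.37 to 0.02, adjusted p = 0.225). *Cdc34*, the E2 enzyme first described for these ligases, falls outside the symbol rule and had a log2 fold change of 0.10 (SE 0.14, adjusted p = 0.646).

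The E2 enzymes of NEDD8 itself did not pass either. *Ube2m*, which serves most cullins, was at 33.1 ± 2.57 CPM in *Nae1* cKO nerves and 32.7 ± 3.02 CPM in WT nerves (log2 fold change 0.02, SE 0.096). *Ube2f*, which serves cullin 5, was at 18.2 ± 1.83 CPM in *Nae1* cKO nerves and 22.7 ± 2.96 CPM in WT nerves (−0.32, SE 0.12, adjusted p = 0.0703), and passed with the letter of the sample name as a term (adjusted p = 0.0494) and without L3 (−0.39, adjusted p = 0.035). Of 7 E2 genes under other symbols, these included, none passed the test, where 14.1% of all tested genes were higher and 12.3% lower. Of 8 tested genes of the RBR ligases, which UBE2L3 serves, only 1 was lower, a share near the 12.3% of all tested genes. It was *Rbck1*, a subunit of the linear chain ligase (−0.38, SE 0.089, adjusted p = 0.0073). This call was lost with library totals (−0.23, adjusted p = 0.0696), in TPM and FPKM, and without K1 and L4 (−0.33, adjusted p = 0.0902).

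UBE2N builds Lys63-linked chains and needs UBE2V1 or UBE2V2, inactive relatives that place the acceptor ubiquitin. *Ube2n* was at 55.5 ± 2.46 CPM in *Nae1* cKO nerves and 53.2 ± 6.94 CPM in WT nerves (log2 fold change 0.06, 95% interval −0.13 to 0.25). *Ube2v2* was at 28.9, 30.9, 31.1 and 29.3 CPM in *Nae1* cKO nerves, against 31.3, 36.7, 33.3 and 43.4 CPM in WT nerves, the one E2 gene with all *Nae1* cKO nerves below all WT nerves, by a narrow gap. The log2 fold change, −0.27 (SE 0.11), missed the threshold (adjusted p = 0.0852) and moved with the nerves used. It passed the test without K1 and L4 (−0.42, adjusted p = 0.0365) and in the L nerves alone (−0.32, adjusted p = 0.0468). It was −0.17 without L9 (adjusted p = 0.217), the WT nerve with the highest level, −0.11 with library totals (adjusted p = 0.52) and −0.06 in log2(TPM + 1) (adjusted p = 0.93). *Ube2v1* was at 15.5, 14.3, 14.8 and 17.5 CPM in *Nae1* cKO nerves, against 16.4, 15.5, 23.0 and 15.8 CPM in WT nerves, with L4 far above the rest. The log2 fold change, −0.19 (SE 0.14), did not pass (adjusted p = 0.362) and was −0.04 without L4.

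Of the E2 enzymes of ER-associated degradation, which clears misfolded proteins of the endoplasmic reticulum, none passed. *Ube2j1* was at 57.0 ± 3.68 CPM in *Nae1* cKO nerves and 50.4 ± 1.72 CPM in WT nerves, with no overlap (log2 fold change 0.18, SE 0.076, adjusted p = 0.107). *Ube2g2* was at 24.3 ± 2.62 CPM in *Nae1* cKO nerves and 20.7 ± 1.85 CPM in WT nerves (0.23, SE 0.11, adjusted p = 0.148), and *Ube2j2* at 23.5 ± 0.698 CPM in *Nae1* cKO nerves and 23.9 ± 1.15 CPM in WT nerves (−0.02, SE 0.085). Of 14 genes of this pathway only 1 was lower, where 12.3% of all tested genes were. It was *Sel1l*, an adaptor of the HRD1 ligase (−0.24, adjusted p = 0.0227). Its call was lost with library totals, with no count filter, when K1, L1, L4, L5 or L8 was left out (adjusted p = 0.0512 to 0.0759), without K1 and L4 and without L1 and L9. In TPM and FPKM the value was 0.01 to 0.03.

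The other E2 enzymes did not pass. *Ube2k*, which builds Lys48-linked chains, came nearest, at 72.2 ± 8.41 CPM in *Nae1* cKO nerves and 59.3 ± 6.71 CPM in WT nerves (log2 fold change 0.29, SE 0.11, adjusted p = 0.0654). It passed with the letter of the sample name as a term (0.28, adjusted p = 0.0205), in the L nerves alone, without K2 (0.36, adjusted p = 0.0072), without L9 (0.36, adjusted p = 0.0259), with library totals and in FPKM. On the log2 fold change scale, *Ube2h*, which serves the CTLH ligase, was at −0.12, *Ube2q1* at −0.11, *Ube2w*, which modifies amino termini, at −0.02, *Ube2o*, which also acts as a ligase, at 0.00, *Ube2z*, which takes ubiquitin from the E1 enzyme UBA6, at 0.04, and *Ube2q2* at 0.07 (SE 0.091 to 0.18). *Ube2cbp* was at 0.856 ± 0.311 CPM in *Nae1* cKO nerves and 1.09 ± 0.116 CPM in WT nerves, with a log2 fold change of −0.34 (SE 0.32).

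The remaining 7 genes had too few counts for a test. *Ube2ql1* had 12, 5, 4 and 4 counts in *Nae1* cKO nerves and 6, 11, 6 and 5 in WT nerves. *Ube2u* had 1, 1, 3 and 0 counts in *Nae1* cKO nerves and 0, 1, 0 and 1 in WT nerves. *Ube2d4*, *Ube2dnl1*, *Ube2dnl2*, *Ube2nl* and *Ube2uos* had 0 counts in all 8 libraries, which allows up to 3 counts per library, or 0.204 to 0.238 CPM.

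Upstream of the E2 enzymes, 2 of 6 genes of ubiquitin and its E1 enzymes were higher and none was lower. Of all tested genes 14.1% were higher. *Rps27a*, which encodes ubiquitin fused to a ribosomal protein, was at 298 ± 64.1 CPM in *Nae1* cKO nerves and 178 ± 16.6 CPM in WT nerves (log2 fold change 0.75, SE 0.13, adjusted p = 0.0014). The polyubiquitin gene *Ubb* had a log2 fold change of −0.36 (SE 0.21, adjusted p = 0.256).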

How the data were processed

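Total RNA of P7 sciatic nerves (4 *Nae1* cKO, 4 WT) was sequenced from stranded, ribosome-depleted libraries. The authors deposited RSEM tables of expected counts (estimated, unscaled), TPM (which the authors scaled to sum to 1000000) and FPKM (deposited per length and depth). The submitters' processing notes list STAR, RSEM and FastQC 0.11.5 with GRCm38, and the paper's methods TopHat and Cuffdiff with mm10. Strand use in counting is not given in the sources used here. Expected counts were rounded, filtered with filterByExpr (17090 genes) and compared with edgeR 4.0.16 (TMM, robust quasi-likelihood test, Benjamini-Hochberg over all genes kept). No covariates were used. Intervals are 1.96 SE on either side. Nerves were taken as separate animals. Where this does not hold, p-values measure technical spread. Of the tested members, 14 had fractional counts, so reads shared with relatives or pseudogenes make them uncertain (*Ube2d3*, *Ube2e1*, *Ube2h*, *Ube2l3* and *Ube2v1* among them in all nerves). Genes were named by rule: all tested members, up to 3 genes per list by adjusted p, and *Nae1*, *Cdc34*, *Ube2m*, *Ube2f* and *Mki67*. A few genes that this rule takes in, 1 tested member among them, are counted but not reported here. Members and lists were chosen with earlier results of these data known. Positions are from GENCODE vM21 and promoters from RefSeq (GRCm38.p6). Alternatives were DESeq2 1.42.0, limma 3.58.1, other scalings, filters and units, the letter of the sample name, and left-out nerves. The fit was tested on simulated data.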

Additional observations from a re-analysis of the deposited data

Results flagged for a closer look

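In *Ube2v1*, WT nerve L4 lay far above the other WT nerves, at 23.0 CPM against 15.5 to 16.4 CPM. L4 also had the highest summed level of skeletal muscle markers (2139 CPM). The part of muscle RNA in this value was not tested. The gene had fractional counts in all nerves. Of 60 groups of 4 nerves examined, this 1 was set apart. This is a smaller share than the roughly 1 in 20 groups that chance alone would set apart.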

How the results depend on the processing

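DESeq2, limma-voom, DESeq2 size factors, no count filter and removal of abundant noncoding and mitochondrial genes gave the same 5 genes higher and none lower. A minimum of 10 counts in every nerve gave 6 higher (*Ube2e3* added) and the letter of the sample name as a term 7 (*Ube2e3* and *Ube2k* added). Library totals gave 12 higher, 3 of them over 2-fold, and limma on log2(FPKM + 1) gave 10 (*Ube2e3*, *Ube2g2*, *Ube2k* and *Ube2s* among those added by both, *Ube2b* and *Ube2j1* by library totals). These scalings moved the median log2 fold change of all genes to 0.16 and 0.14. Limma on log2(TPM + 1) and on log2(TPM + 0.1) gave 1 higher each, *Ube2a*, with medians of 0.11 and 0.13 and far fewer calls over all genes (1360 and 1284), and there *Nae1* was at −0.44 and −0.46 and did not pass. The L nerves alone gave 7 higher, 2 of them over 2-fold, and 1 lower. With each nerve left out in turn, 4 to 7 genes were higher, 0 were lower and 1 to 3 were over 2-fold, with 3 over 2-fold without K2 and 2 without L9. The settings without 2 nerves were chosen after seeing the data. Without K1 and L4, the calls of *Fanci*, *Gm14549*, *Ifit3*, *Mki67*, *Pcna* and *Sept6* were also lost (adjusted p = 0.0557 to 0.0827), 1 member was higher (*Ube2a*) and 1 lower (*Ube2v2*), and without L1 and L9, 2 were higher (*Ube2a* and *Ube2e1*). Without K1 and L4, 2402 of 17749 genes were called in either direction. In that setting 7 of 12 macrophage and 2 of 8 fibroblast markers were higher, and 4 of 9 Schwann cell and 1 of 7 endothelial markers were lower. No paired analysis was possible because the nerves of the groups share no replicate numbers. *Ube2a* was called under all 22 settings. Of 678 values of tested members under these settings, 67 had the other sign than in the main result, and none of these passed the test. The cause of the other sign was not tested. With library totals the values were *Ube2d2a* 0.14, *Ube2d2b* 0.12, *Ube2d3* 0.11, *Ube2h* 0.041, *Ube2j2* 0.13, *Ube2q1* 0.050, *Ube2r2* 0.093 and *Ube2w* 0.14. In log2(TPM + 1) the values were *Ube2d2a* 0.12, *Ube2d2b* 0.056, *Ube2d3* 0.12, *Ube2h* 0.024, *Ube2j2* 0.039, *Ube2l3* 0.13, *Ube2q1* 0.078, *Ube2r2* 0.061, *Ube2w* 0.15 and *Sel1l* 0.0069. In log2(TPM + 0.1) the values were *Ube2d2a* 0.13, *Ube2d2b* 0.080, *Ube2d3* 0.12, *Ube2h* 0.023, *Ube2j2* 0.040, *Ube2l3* 0.14, *Ube2q1* 0.080, *Ube2r2* 0.062, *Ube2w* 0.16 and *Sel1l* 0.0057. In log2(FPKM + 1) the values were *Ube2d2a* 0.15, *Ube2d2b* 0.089, *Ube2d3* 0.15, *Ube2h* 0.051, *Ube2j2* 0.066, *Ube2l3* 0.16, *Ube2q1* 0.10, *Ube2r2* 0.088, *Ube2w* 0.18 and *Sel1l* 0.034. Without K1 and L4 the values were *Ube2d1* 0.065, *Ube2d2a* 0.096, *Ube2d2b* 0.015 and *Ube2m* −0.097. Without L1 and L9 the values were *Ube2d2b* 0.17, *Ube2e2* −0.11, *Ube2j2* 0.019, *Ube2o* −0.12 and *Ube2w* 0.063. In the L nerves alone the values were *Ube2o* −0.077, *Ube2q2* −0.052 and *Ube2m* −0.059. Others were *Ube2o* −0.0049 with DESeq2, *Ube2o* −0.0052 with DESeq2 size factors, *Ube2o* −0.00072 without a count filter, *Ube2o* −0.00065 with the letter as a term, *Ube2w* 0.00063 with limma-voom. With each nerve left out in turn, values that crossed 0 ranged over *Ube2d2a* −0.064 to 0.10, *Ube2d2b* −0.19 to 0.10, *Ube2e2* −0.10 to 0.093, *Ube2j2* −0.052 to 0.00041, *Ube2m* −0.022 to 0.072, *Ube2o* −0.15 to 0.14, *Ube2q2* −0.029 to 0.12 and *Ube2w* −0.11 to 0.075. *Ube2m* and *Sel1l* are given with the members. Depth limits *Ube2t* and *Ube2l6*, with 29 to 92 and 69 to 135 counts per library, and *Ube2ql1* and *Ube2u* were too low to test. With 4 nerves a group, an exact permutation test cannot give a p below 0.0286.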
